A study of Caenorhabditis elegans with 2 samples.

Results

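The GATA transcription factors of Caenorhabditis elegans are zinc finger proteins that bind DNA at GATA sites and direct cell fate in the intestine and the epidermis. The chromatin around 8 of their genes was examined for regions bound by the transcription factor JUN-1, as mapped by ChIP-seq (sequencing of the DNA that is precipitated with a protein). The annotation used here holds 19973 nuclear protein-coding genes. The 8 were chosen as GATA factors of 2 tissues, with earlier results of these data known. The 4 intestinal members are elt-2, elt-7, end-1 and end-3, and the 4 epidermal members are elt-1, elt-3, egl-18 and elt-6. For each gene, every listed region was taken that overlapped a window from 5000 bp upstream of the gene's outermost 5′ end to the gene's end. All 8 genes lie on the plus strand, and the windows of egl-18 and elt-6 share 4.86 kb because these genes are neighbours.

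The sample was whole L3 larvae of both sexes, with 2 biological replicates of 1 group. The strain, OP234, carries unc-119(ed3) on chromosome III and the transgene wgIs234, which supplies JUN-1 with an eGFP tag, and both replicates share them. What drives the transgene is not given in these labels, and signal of the control libraries was not analysed here. The cells in which a region was occupied cannot be told from whole larvae, and no condition was compared. Of the deposited lists on build ce11, the IDR list held 2738 peaks, the pooled list 20820 regions, the list of replicate 1 27417 and that of replicate 2 28475. The IDR list keeps regions by how consistently they rank between replicates, but a single peak in it can still rank unlike in the 2. A summit within 200 bp was listed in both replicates for 2702 of its peaks. The strength of a region is given by the signal value of the authors' caller. Its scale is not stated. It ran from 31.4 to 474 in the IDR list and from 8.67 to 474 in the pooled list. Signal values are used only to rank and describe regions within a list, and the read depth behind them is unknown.

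Intestinal fate in the worm embryo is set by a cascade of GATA factors. END-1 and END-3 act briefly in the endoderm precursor, and ELT-2 and ELT-7 then maintain the intestine through larval and adult life. In the epidermis, ELT-1 specifies the fate in the embryo, ELT-3 acts in the differentiated hypodermis, and EGL-18 and ELT-6 act in the seam cells. JUN-1 is the worm's c-Jun-like bZIP protein. Proteins of that family bind DNA as pairs, at AP-1 or CRE sites.

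The IDR peaks at these genes were all at intestinal members. There were 5 such peaks, 3 at elt-2, 1 at end-1 and 1 at end-3, and 0 at elt-7. The windows of elt-1, elt-3, egl-18 and elt-6 held 0 IDR peaks. Thus 3 of 4 intestinal and 0 of 4 epidermal members had one, beside 20.7% of all coding genes under the same rule. Only elt-2 had an IDR summit in a promoter window (1000 bp upstream to 500 bp downstream of a coding 5′ end), beside 9.5% of coding genes. The genes are not replicates of a tissue, so no test of this difference was made. At a share of 20.7%, 0 of 4 genes says little by itself.

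**Figure D1:**
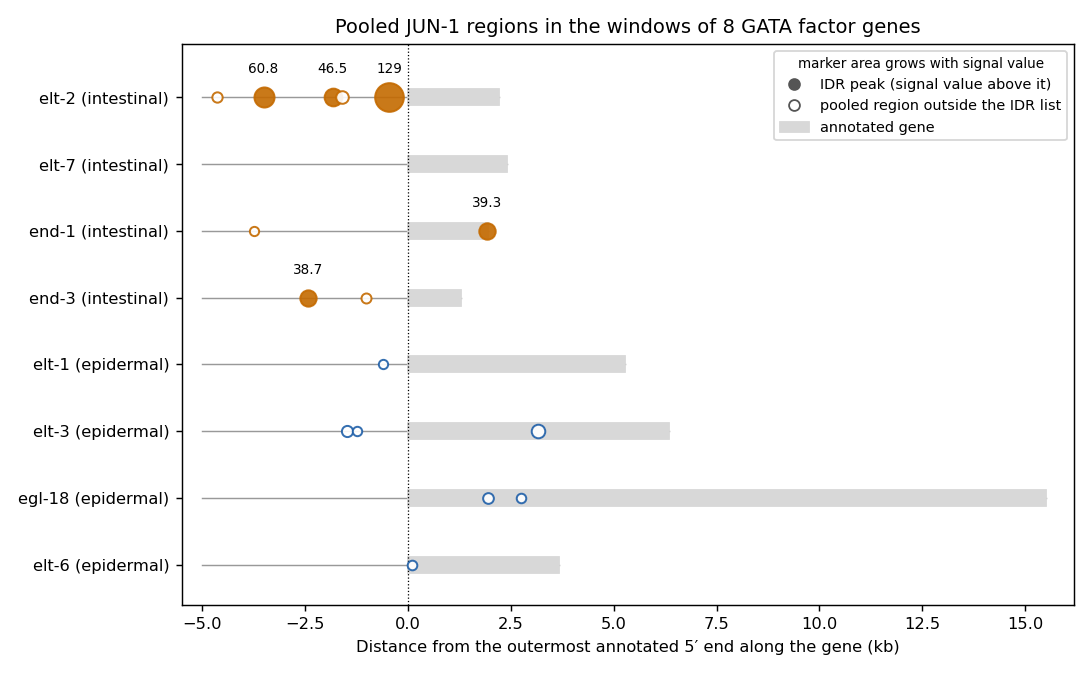
Each row is the window of 1 gene, with distance from the outermost annotated 5′ end in kb on the x axis and the gene as a grey bar. Circles are pooled regions at their summits, filled where they are IDR peaks, with area growing with the signal value. The 5 filled circles are at elt-2 (60.8, 46.5 and 129), end-1 (39.3) and end-3 (38.7).

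Sequences from 5 regions of the intestinal members are shown because they hold the GATA or CRE letters described below, and the sequence of an elt-3 region, which holds none of them, is shown beside them. They are from the RefSeq copy of WBcel235 (ce11), plus strand. Capitals mark matches on either strand to the GATA letters TGATAA or AGATAA or to the CRE letters TGACGTCA. At elt-2 the first stretch spans 100 bp on each side of the summit of the promoter peak (chrX:10480677-10480877). The second spans 50 bp on each side of the summit 1826 bp upstream (chrX:10479364-10479464), and the third does so for a weaker region 1594 bp upstream (chrX:10479596-10479696). The fourth is the peak 2423 bp upstream of end-3 (chrV:14012222-14012327), the fifth 30 bases of the peak at the end of end-1 (chrV:13986993-13987022), and the last the strongest region of an epidermal member, in an elt-3 intron (chrX:13937990-13938090). A weaker elt-3 region, not shown, held TGATAA starting 88 bp from its summit.
elt-2 promoter peak: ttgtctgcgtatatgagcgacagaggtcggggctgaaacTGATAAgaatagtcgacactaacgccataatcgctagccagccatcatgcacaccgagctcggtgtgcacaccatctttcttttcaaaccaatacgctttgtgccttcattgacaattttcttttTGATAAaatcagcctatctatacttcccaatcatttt
elt-2 peak 1826 bp upstream: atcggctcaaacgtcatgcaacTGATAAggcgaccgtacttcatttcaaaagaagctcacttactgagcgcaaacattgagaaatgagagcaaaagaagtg
elt-2 region 1594 bp upstream: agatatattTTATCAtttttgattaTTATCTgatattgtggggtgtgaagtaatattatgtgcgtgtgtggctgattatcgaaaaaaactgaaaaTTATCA
end-3 upstream peak: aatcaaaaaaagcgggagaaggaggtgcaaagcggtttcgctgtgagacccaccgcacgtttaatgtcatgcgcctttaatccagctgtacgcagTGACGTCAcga
end-1 3′ peak: tctcttaaatTTATCTTATCTttttatgtg
elt-3 intron region: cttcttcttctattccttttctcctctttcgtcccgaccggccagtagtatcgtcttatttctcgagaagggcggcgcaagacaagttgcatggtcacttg

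The elt-2 gene (WBGene00001250, X 10481240 to 10483441), which encodes the dominant GATA factor of the larval intestine, had the strongest regions of the 8 members. Its promoter peak, at X 10480582 to 10480971, lay between genes, and its summit was 463 bp upstream of the elt-2 5′ end. The signal value was 129 in the pooled data, 50.2 in replicate 1 and 79.3 in replicate 2. These values ranked 135 of 20820, 199 of 27417 and 107 of 28475, so the region stood in the top 1 percent of the pooled list and of both replicate lists. Among the 2738 IDR peaks, 95.1% were weaker. Of the 1898 coding genes with an IDR summit in a promoter window, 100 had a stronger such peak, and 94.7% had a weaker one.

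Further IDR peaks lay upstream of elt-2. The first, at X 10477534 to 10477923, had its summit 3511 bp upstream of elt-2 and in the 3′ UTR of the uncharacterised gene C39B10.7, 856 bp downstream of that gene's 5′ end (60.8 pooled, 18.9 in replicate 1 and 40.9 in replicate 2). The other, at X 10479219 to 10479608, had its summit 1826 bp upstream, between genes and just outside the noncoding RNA gene C33D3.6 (46.5 pooled, 39.04 in replicate 2). In replicate 1 the nearest summit to it was 199 bp away and weak, at 7.40, ranking 8220, while in replicate 2 it ranked 701. The summit of that peak was therefore a strong region in replicate 2 only. Windows with 3 or more IDR peaks, as elt-2 has, were found at 1.05% of coding genes.

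Pooled regions outside the IDR list filled in the same stretch. One with its summit 1594 bp upstream of elt-2 overlapped the -1826 bp peak (21.4 pooled, 11.4 in replicate 1 and 13.3 in replicate 2). A weak one 4633 bp upstream (12.99 pooled, 5.41 in replicate 1) had no match in replicate 2, that is, no summit within 200 bp. The GATA gene elt-4 lies just beyond the window, upstream of C39B10.7.

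The end-1 gene (WBGene00001310, V 13985128 to 13987074), an embryonic endoderm gene, had its IDR peak at the far end. The peak at V 13986843 to 13987232 had its summit in the end-1 3′ UTR, 1910 bp downstream of the 5′ end. The neighbour ric-7 is transcribed towards end-1, and its nearest 5′ end was 3809 bp away. The peak's signal value was 39.3 pooled, 12.6 in replicate 1 and 25.6 in replicate 2, which is rank 1919 of the 2738 IDR peaks. In replicate 1 it ranked 3321. No IDR or pooled summit lay in the end-1 promoter window.

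The end-3 gene (WBGene00001311, V 14014695 to 14015980), which acts with end-1, had its IDR peak nearer to other genes. The peak at V 14012077 to 14012466 was 2423 bp upstream of end-3, but 61 bp upstream of aip-1, an arsenite-inducible gene, and 220 bp upstream of ddx-17, which is transcribed the other way. It had 38.7 pooled, 17.8 in replicate 1 and 24.6 in replicate 2, and ranked 1968 of the IDR peaks. Nearer to end-3 itself was a lower-ranked region 1030 bp upstream (11.9 pooled, 8.79 in replicate 2), with no match in replicate 1.

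At elt-7 (WBGene00015981, V 4770670 to 4773086), which acts alongside elt-2 in the intestine, the lists used here held no region. Its 7.42 kb window was empty in the IDR, pooled and both replicate lists, as were the windows of 9.71% of coding genes in the pooled and replicate lists. The gap around it without a region was 31.8 kb in the pooled list, 28.5 kb in replicate 1 and 12.1 kb in replicate 2. Gaps at least as long made up 1.42% of all gaps in the pooled list, 0.451% in replicate 1 and 5.64% in replicate 2. A gap that holds an empty 7.42 kb window must be longer than that window. The median gap was 2196 bp in the pooled list, 1915 bp in replicate 1 and 1795 bp in replicate 2. These shares therefore do not show that the gap is unusual. The nearest IDR summit was 32762 bp upstream, 77 bp downstream of the 5′ end of F39G3.2. A weak region under the lists' lowest values, 8.67 pooled, 3.57 in replicate 1 and 4.36 in replicate 2, would not be seen.

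Among epidermal members the strongest region was at elt-3 (WBGene00001251, X 13934874 to 13941216), the factor of the differentiated hypodermis. It lay in an intron at X 13937845 to 13938234, with its summit 3166 bp downstream of the outermost 5′ end and 703 bp upstream of the nearest inner one, from which a shorter transcript starts. The signal value was 25.5 pooled, 12.2 in replicate 1 and 12.1 in replicate 2. The deposited −log10 q was 2.15, against 3.73 at each of the IDR peaks above. That 3.73 is the highest value in the pooled list, shared by peaks of unlike signal, so it does not grade them. The intron region ranked 3742 in the pooled list, below the lowest IDR signal of 31.4. Replicate 1 listed another intronic region, 2662 bp downstream (12.5), that had no match in replicate 2. A pooled region 1490 bp upstream (15.9 pooled, 10.2 in replicate 2) had no match in replicate 1.

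At egl-18 (WBGene00001186, IV 1902322 to 1917840), a seam cell factor gene, the stronger pooled region was at IV 1904061 to 1904450. It had 14.4 pooled, 7.67 in replicate 1 and, from a summit 135 bp away, 5.73 in replicate 2, and lay in an intron, 1934 bp downstream of the outermost 5′ end. The next coding 5′ ends are 9190 and 9198 bp further on. RefSeq starts egl-18 at 1913446, at those inner ends, and with that start both pooled regions of egl-18 fell outside the window. The neighbour elt-6 (WBGene00001253, IV 1917977 to 1921643) had a single pooled region, in a coding exon 85 bp downstream of its 5′ end (10.8 pooled, 5.84 in replicate 1 and 4.67 in replicate 2).

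The elt-1 gene (WBGene00001249, IV 9614995 to 9620280), which specifies epidermal fate, had a single pooled region, weaker than the strongest one of each other gene with any. It lay 611 bp upstream (9.74 pooled, 3.68 in replicate 1), near the bottom of the pooled list at rank 17009, and was not matched in replicate 2. Its strongest regions in the replicate lists lay elsewhere, 3201 bp downstream in replicate 1 (5.72) and 2530 bp downstream in replicate 2 (5.70), and neither had a match in the other replicate. For the epidermal members the nearest IDR summits were 11019 bp from the 5′ end at elt-1 and 16027 bp at elt-3. At egl-18 and elt-6 the same peak was nearest, 42703 bp and 58358 bp upstream, inside egl-4.

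**Figure D2:**
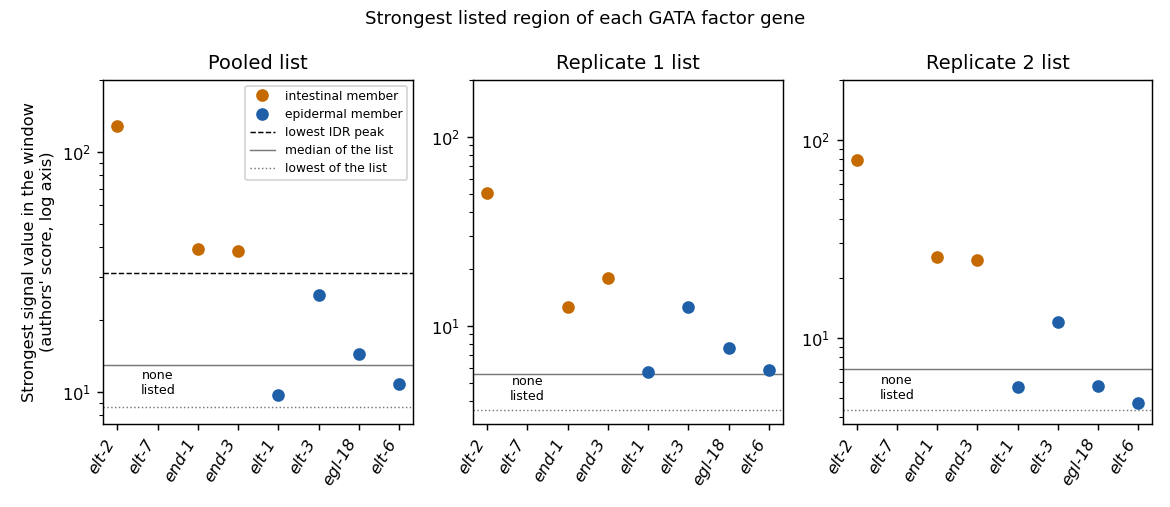
The y axis (log scale) gives the signal value of the strongest region in each gene's window, in the pooled list and in each replicate list, with intestinal members left of epidermal ones. In the pooled list elt-2 (129), end-1 (39.3) and end-3 (38.7) are above the lowest IDR signal of 31.4, and elt-1, elt-3, egl-18 and elt-6 are between 9.74 and 25.5, while elt-7 has none listed.

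In the pooled list, 7 of 8 members had a region in the window, beside 70.2% of coding genes, so presence of any region says little about the family. The listed strength of the pooled regions set the 2 tissues apart more than their presence did, though this was not tested. Of the 9 intestinal ones, 5 were at elt-2. Replicate 1 alone did not separate end-1 from elt-3, whose strongest regions there had 12.58 and 12.54. The 9 pooled regions of the intestinal members had a median signal of 38.7 and a range of 9.61 to 129, and 7 of them were matched in both replicates. The 7 of the epidermal members had a median of 10.8 and a range of 9.74 to 25.5, and 3 were matched in both. The 2 ranges overlap at or below 25.5, where 4 intestinal regions lie beside the epidermal ones. Weak pooled summits also lay in promoter windows of 3 epidermal members, elt-1, elt-3 and elt-6, while elt-2 was the 1 intestinal member with such a summit.

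Density did not separate the tissues in each list. Per kb of window, the intestinal members had 0.323 pooled regions and the epidermal members 0.152, against 0.208 over the genome. In replicate 2 the densities were 0.431 and 0.239, against 0.284 over the genome. In replicate 1 the order was the other way, with 0.287 at intestinal and 0.370 at epidermal members, against 0.273 over the genome. The epidermal regions of replicate 1 were weak, with a median of 4.37 against 11.98 at intestinal members. IDR peaks had a density of 0.180 per kb at intestinal members and 0 at epidermal ones, against 0.0273 over the genome. Of the 5 intestinal IDR peaks, 3 were at elt-2. The genome values are over whole chromosomes, not over windows of the same kind, so they are no matched reference. The epidermal windows were the longer ones, 45.95 kb in all against 27.9 kb.

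**Figure D3:**
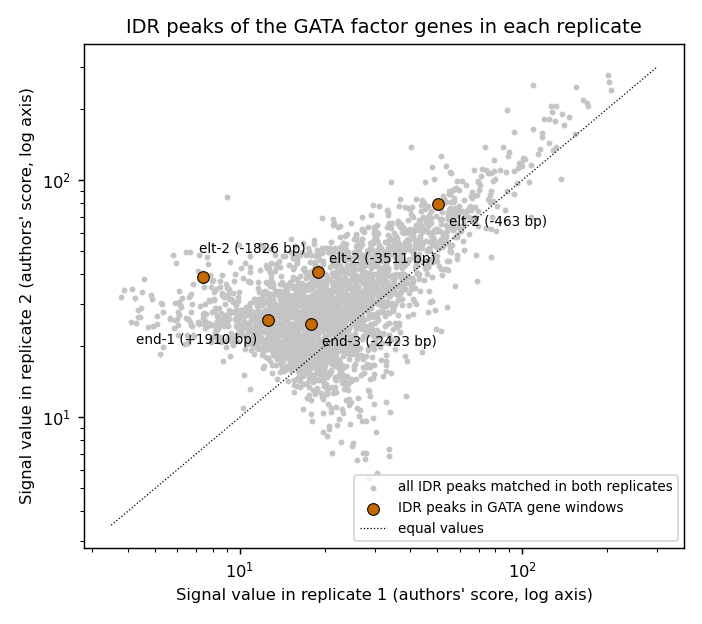
Signal values of IDR peaks in replicate 1 (x axis) and replicate 2 (y axis), both on log scales, with the peaks of the GATA genes in colour and all 2702 matched IDR peaks in grey. The elt-2 promoter peak (50.2 and 79.3) lies among the strong peaks of both replicates, whereas the elt-2 peak at -1826 bp (7.40 and 39.04) lies at the low edge of replicate 1. The replicate 1 value of the latter is that of a summit 199 bp away.

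All 5 IDR peaks of the 8 members had the higher signal value in replicate 2, as did most IDR peaks, though the scale of the score may differ between the lists. Over the 2702 matched peaks, the replicate 2 value divided by the replicate 1 value had a median of 1.41 and quartiles of 1.06 and 1.92. The end-3 peak (1.38) and the elt-2 promoter peak (1.58) were near that median. The end-1 peak (2.04) and the elt-2 peak at -3511 bp (2.16) were above the upper quartile. The elt-2 peak at -1826 bp was far above it, at 5.28, a ratio higher than at 98.9% of matched peaks. Its replicate 1 value is that of a summit 199 bp away, so this ratio may not compare the same region.

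GATA letters lay close to some of the intestinal peaks. The AP-1 letters TGACTCA were at none of the 16 member regions within 50 bp or 100 bp of the summit. They were rare throughout, in 3.4% of all IDR peaks within 50 bp and 5.6% within 100 bp. Among pooled regions that overlap no IDR peak the shares were 1.5% and 3.0%. Their absence from 16 regions therefore says little. Within 50 bp of a summit, on both strands, TGATAA was in 2 of the 5 member IDR peaks, beside 23.96% of all IDR peaks and 14.2% of the 17626 lower-ranked pooled regions, those that overlap no IDR peak. They were the elt-2 peak at -1826 bp and the end-1 peak. The end-1 peak also held AGATAA at 2 sites that share 1 base, in the capitals of its 30-base stretch. AGATAA was in 8.25% of all IDR windows and 7.39% of lower-ranked ones. Of the 7 epidermal regions, 0 held TGATAA or AGATAA within 50 bp, beside 20.3% of lower-ranked regions. Within 100 bp 1 of the 7 did, at elt-3, beside 34.4% of lower-ranked regions. Counts from 7 regions say little. Matched letters describe the window and do not show that a factor binds there.

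The elt-2 promoter peak held no TGATAA within 50 bp of its summit but had a copy on each side, starting 61 bp before and 64 bp after it, both on the plus strand. With 100 bp on each side, TGATAA was in 4 of 5 member IDR peaks, beside 36.2% of all IDR peaks, and a window with 2 or more copies was found at 16.5% of IDR peaks. The lower-ranked elt-2 region at -1594 bp held TGATAA 2 times and AGATAA 1 time within 50 bp. The CRE letters TGACGTCA, which bZIP pairs can bind, were at 1 member peak. That was the end-3 upstream peak, starting 45 bp from its summit and so partly outside the 50 bp window, between the summit and the 5′ end of aip-1. Within 100 bp, 2.08% of IDR peaks held the CRE. The elt-2 peak at -3511 bp held GAGAGAGA, found in 6.28% of all IDR windows of 50 bp on each side. CACGTG was at 0 member IDR peaks, beside 6.98% of all.

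Other genes that act with these factors were described by the same window rule, on lists chosen with earlier results of these data known, so the counts are no independent support. Of 4 further GATA-type genes, 1 had an IDR peak in the window, beside 20.7% of all coding genes. That was egl-27, which encodes an MTA-like chromatin protein with a GATA-type finger. It had 3 IDR peaks in a window of 17.9 kb, against a median window of 7.03 kb over all coding genes. The strongest, in an intron at II 6842634 to 6843023 and 425 bp downstream of an inner 5′ end, had 88.1 pooled, 24.7 in replicate 1 and 65.6 in replicate 2. The elt-4, med-1 and med-2 windows had 0 IDR peaks, and their strongest pooled regions were 11.7, 20.7 and 10.7. These values were within the range of the epidermal members (9.74 to 25.5) and below the strongest regions of elt-2, end-1 and end-3. The med genes are also on the endoderm list below.

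Of 8 endoderm specification genes, med-1 and med-2 included again, 4 had an IDR peak in the window, beside 20.7% of all coding genes, and 3 in the promoter window, beside 9.5%. Their windows had a median length of 9.81 kb, against 7.03 kb over all coding genes. The promoter peaks were at skn-1 (56.7 pooled, 14.9 in replicate 1 and 43.8 in replicate 2), whose maternal product acts at the top of the endoderm cascade, the Nemo-like kinase gene lit-1 (45.2 pooled, 15.6 in replicate 1 and 27.6 in replicate 2) and the beta-catenin gene wrm-1 (36.8 pooled, 23.1 in replicate 1 and 13.9 in replicate 2). The other gene with an IDR peak was the beta-catenin-like gene sys-1, outside its promoter window. Of 23 intestinal genes, 12 had an IDR peak in the window, beside the same 20.7%, and 8 in the promoter window, beside the same 9.5%. Their median window was 7.69 kb. The strongest promoter peaks were at the cathepsin B-like protease gene cpr-1 (61.7 pooled, 19.3 in replicate 1 and 46.1 in replicate 2), the fatty acid desaturase gene fat-6 (54.1 pooled, 18.7 in replicate 1 and 33.1 in replicate 2) and the lysozyme gene lys-8 (48.5 pooled, 18.7 in replicate 1 and 29.2 in replicate 2).

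The epidermal lists had no IDR peak. Of 11 epidermal regulator genes 0 had one in the window, and of 18 epidermal and cuticle genes 0 did, beside the 20.7% of all coding genes given above. The median windows were 8.58 kb for the regulators and 6.31 kb for the cuticle list. Pooled regions were present at 9 of 11 and 15 of 18 genes, beside 70.2% of all coding genes. The strongest signal per gene was 8.93 to 30.9 (median 17.2) for the regulators and 8.88 to 25.5 (median 13.4) for the cuticle list. For the intestinal list the strongest signal per gene ran from 11.8 to 69.5, with a median of 44.7. The epidermal gene nearest to the lowest IDR signal of 31.4 was the regulator blmp-1, at 30.9, singled out after its value was seen.

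**Figure D4:**
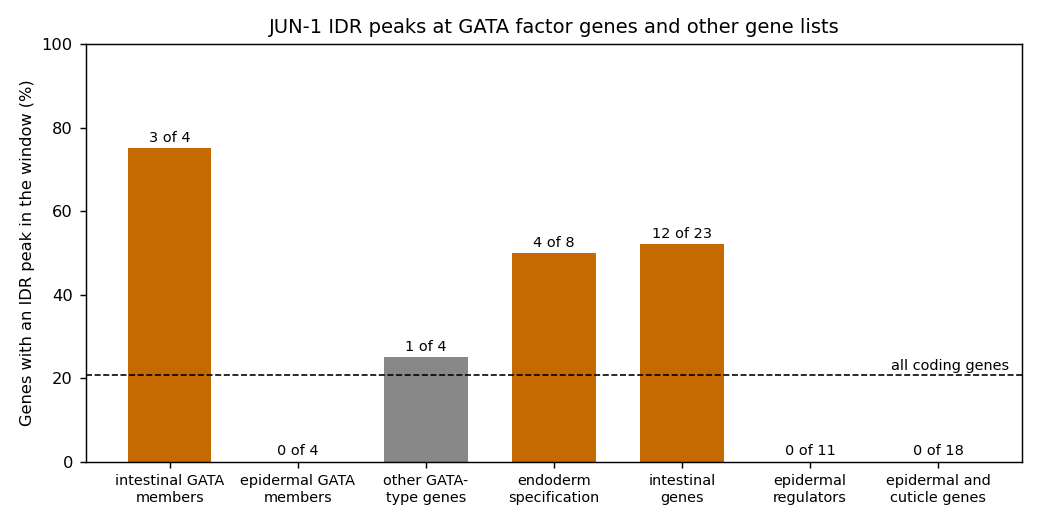
Bars give the percentage of genes with an IDR peak in the window for the GATA members and the other gene lists, with counts above each bar. The dashed line marks 20.7%, the share of all coding genes; the endoderm (4 of 8) and intestinal (12 of 23) lists are above it, and the epidermal members (0 of 4) and both epidermal lists (0 of 11 and 0 of 18) are at 0.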

How the data were processed

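The deposited files are peak lists in narrowPeak format. A deposited text says that a replicate's list was made from its own alignments with a control. The pooled list was made from both replicates, and the IDR list from the pooled list and the 2 replicate lists. The sources used here do not give the caller, the aligner or the depth. Column 7 is the authors' signal value, used as a score with no stated scale, and column 9 the deposited −log10 of a q-value. Only the ce11 lists were used. No region ran past the end of a WBcel235 chromosome. Controls were not analysed here.

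Genes came from Ensembl release 115 and bases from the RefSeq genome of the same build. Regions overlapping a window by 1 bp or more were counted. Replicate regions were matched by the nearest summit within 200 bp. The 6 motifs were looked for on either strand, up to 50 bp from a summit. The assignment and motif search were tested on simulated data. No p-value is given, since there is 1 group and the members are genes, not replicates. All members by name, other GATA-type genes, and up to 3 genes per list with the strongest promoter peak are named. Members and lists were chosen with earlier results of these data known. Python 3.11.15, numpy 2.4.6, pandas 2.3.3 and matplotlib 3.10.9 were used.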

Additional observations from a re-analysis of the deposited data

How the results depend on the processing

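The absence of IDR peaks at the 4 epidermal members held in all 7 alternatives run on it, and elt-2 kept a peak in each of them. Since 20.7% of all coding genes had such a peak under the main rule, 0 of 4 says little by itself. The 2000 bp window, the summit rule and the stronger peaks alone can only remove regions, so that absence could not change under them. RefSeq bounds hardly lengthen any epidermal window. The 10000 bp window could not add one, as the nearest IDR summits were 11019 bp or more from the epidermal members' 5′ ends. Only the lists of 1 replicate could readily have added a region there. With 2000 bp upstream in place of 5000, the member windows held 3 IDR peaks, and end-3 lost its own. With the 1369 strongest IDR peaks alone, 1 member, the intestinal elt-2, had 2 peaks. Using the list of 1 replicate alone, with its 2738 strongest regions, 2 to 3 members, all intestinal, had 3 to 5 regions: end-1 had none without replicate 2. With 100 bp on each side of the summit, TGATAA was at 4 member IDR peaks in place of 2. With 10000 bp upstream, with the summit required inside the window and with RefSeq gene bounds, an alternative chosen after seeing the data, the counts were the same. RefSeq bounds left 5 of the 7 epidermal pooled regions. A promoter window of 500 bp upstream left elt-2 as the 1 member with a promoter summit. Matching replicates within 100 bp left the elt-2 peak at -1826 bp without a value in replicate 1, and the other 9 replicate values of the IDR peaks were the same. Among lower-ranked regions it left the egl-18 region at 14.4 and the end-1 region at 9.61 without a value in replicate 2. Over the pooled regions, 5 of 9 intestinal and 2 of 7 epidermal ones were then matched in both replicates, in place of 7 and 3, a count added after seeing the data. No paired analysis was possible because there is 1 group. Depth is unknown, so regions under the lists' lowest signal values were not detectable.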

Other observations

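The summit of the elt-2 promoter peak lies inside a perfect inverted repeat of 22 bp, a stretch that reads the same on both strands. It starts 14 bp before the summit, at chrX:10480763-10480784, and was noticed in the printed sequence after the values were seen.
elt-2 inverted repeat: TGCACACCGAGCTCGGTGTGCA
Windows of 50 bp on each side of the summit held an inverted repeat at least as long at 3 of the 2738 IDR peaks (0.110%) and at 13 of the 17626 lower-ranked regions (0.0738%). The median longest repeat was 6 bp in both sets. At the other 15 member regions the longest was between 4 and 10 bp.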
